A study of Mus musculus with 8 samples.

Results

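The ephrins, semaphorins, Slits, and netrins and their Eph, plexin, neuropilin, Robo, Dcc, Neo1, and Unc5 receptors were examined in the developing mouse retina. They were chosen by gene symbol, and the tables held 70 of them (35 ligands and 35 receptors in 14 families) among 21827 genes. RNA was sequenced from wild-type retinas of the strain slc:ICR, an outbred stock, in 8 conditions with 1 library each. Whole retinas were taken at embryonic days 15 and 18 (E15, E18). Retinas from postnatal days 2, 5, and 8 (P2, P5, P8) were pooled, dissociated with trypsin, and sorted with an antibody to Cd73, a surface enzyme carried by rod precursors and rods, into a positive (Cd73PC) and a negative (Cd73NC) fraction. The comparison of fractions asks which genes differ between a fraction enriched for rods and the remaining retinal cells. The comparison of ages asks how the genes change as late-born cells differentiate.

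Axon guidance proteins steer growing axons and dendrites by attraction or repulsion. Ephrins are anchored to the cell surface and signal to Eph receptors on neighboring cells, semaphorins act through plexins, with neuropilins as co-receptors for most class 3 members, Slits act through Robo receptors, and netrins act through Dcc, Neo1, and Unc5 receptors. In the retina these families are known for guiding ganglion cell axons to the optic disc and to their brain targets, for graded position along the retinal axes, and for confining neurites of amacrine, bipolar, and ganglion cells to their layers.

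Expression is given as FPKM, an estimate scaled to transcript length and to the mapped fragments of the library, so levels of different genes can be set side by side. Log2 ratios and folds between libraries were taken on FPKM + 1, a scale that shrinks the changes of genes near 0, and "higher" or "lower" below means past 1.5-fold on that scale. Without replicate libraries there is no error to set a difference against, and agreement over P2, P5, and P8 repeats a direction over stages, not over replicates. The bars that Cufflinks, the estimation program, gives around each FPKM cover only the estimation within a library. In sorted or whole tissue, fewer cells of a type and less RNA per cell cannot be told apart.

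The sorting label was checked against cell type markers. All 8 rod markers, among them Nrl, were higher in Cd73PC at every postnatal stage, yet Cd73NC kept rod transcripts, at 0.0556% to 18.9% of the Cd73PC level at P2, 5.55% to 51.0% at P5, and 5.13% to 30.3% at P8. The converse also held, since at P8 the bipolar marker Otx2, which photoreceptors also express, lay in Cd73PC at 63.9% of Cd73NC and the 7 others at 7.70% to 28.7%. All 9 progenitor markers were higher in Cd73NC at every stage, and at P8 the 7 that reached FPKM 5 in 1 of the fractions lay at 11.9% to 25.0% in Cd73PC. Of the 7 cone markers, 2, 1, and 3 were higher in Cd73PC by stage, and 1 was higher in Cd73NC, at P5. The amacrine marker Slc6a9 was higher in Cd73PC at all 3 stages (folds of 6.47, 1.76, and 4.53). Of the 6 amacrine markers, 4, 3, and 1 were higher in Cd73NC. The Muller glia marker Clu was higher in Cd73PC at P2 and P5, while 5, 6, and 7 of the 8 were higher in Cd73NC. At P2 alone all 8 microglial and all 4 astrocyte markers were higher in Cd73PC (summed FPKM 54.6 and 25.4, against 9.28 and 2.54 in Cd73NC). Microglial markers were present in Cd73PC later too, with sums of 46.8 at P5 and 150.8 at P8, against 68.0 and 196.9 in Cd73NC. Ganglion cell markers summed to 1033 at E15 and 631 at E18, and Pou4f2, which defines these cells, was below FPKM 0.4 in each sorted library. Relative sequencing depth ran from 0.966 to 1.61 times that of the E18 library.

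At each stage more guidance genes were higher in Cd73NC than in Cd73PC, and the Cd73NC count grew with age. At P2, 32 of the 70 were higher in Cd73NC, where 14.4% of all genes were, and 8 were higher in Cd73PC, where 8.56% of all genes were. At P5 the counts were 43 in Cd73NC (background 15.5%) and 2 in Cd73PC (background 7.02%). At P8 they were 49 in Cd73NC (background 18.6%) and 3 in Cd73PC (background 7.54%). Among genes with a mean FPKM of at least 1, the share higher in Cd73NC was 24.2%, 26.3%, and 29.8% by stage, against 31, 43, and 47 of the 59 guidance genes at that level. The share of such genes higher in Cd73PC was 13.9%, 11.6%, and 12.4%, against 7, 2, and 3 of the 59. The median log2 ratio of Cd73PC over Cd73NC over the 70 fell from -0.53 through -1.06 to -1.32 over the 3 stages, whereas the median of all genes was 0.00, 0.00, and -0.02. At all 3 stages, 29 were higher in Cd73NC (background 7.83%) and 2, Sema7a and Plxna2, were higher in Cd73PC (background 3.51%). All 31 were among the 59, and the backgrounds at that level were 13.7% and 5.98%. By role, 20, 20, and 27 of the 35 ligands and 12, 23, and 22 of the 35 receptors were higher in Cd73NC at the 3 stages.

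**Figure D1:**
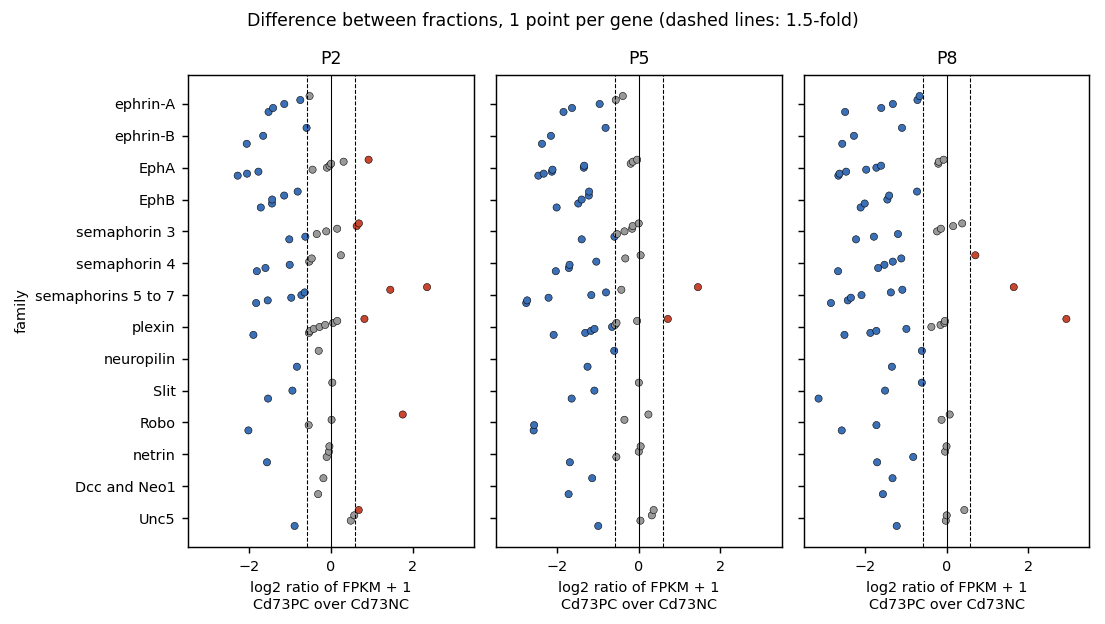
Log2 ratio of FPKM + 1 (Cd73PC over Cd73NC, x axis) of each of the 70 guidance genes by family (y axis) at P2, P5, and P8, 1 point per gene, with blue and red for genes past 1.5-fold (dashed lines) in Cd73NC and Cd73PC. The points lie mostly left of 0, with medians of -0.53, -1.06, and -1.32, and the number of red points is 8, then 2, then 3.

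The genes differed widely in level. Over the 8 libraries, 35 of the 70 stayed at FPKM 1 or above throughout, and 6 (Ntn5, Plxnb3, Epha1, Robo4, Slit3, and Sema3c) never reached 1. The highest means were those of Plxnb2, a receptor of class 4 semaphorins, and Ephb2, a receptor of B-class ephrins.

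**Figure D2:**
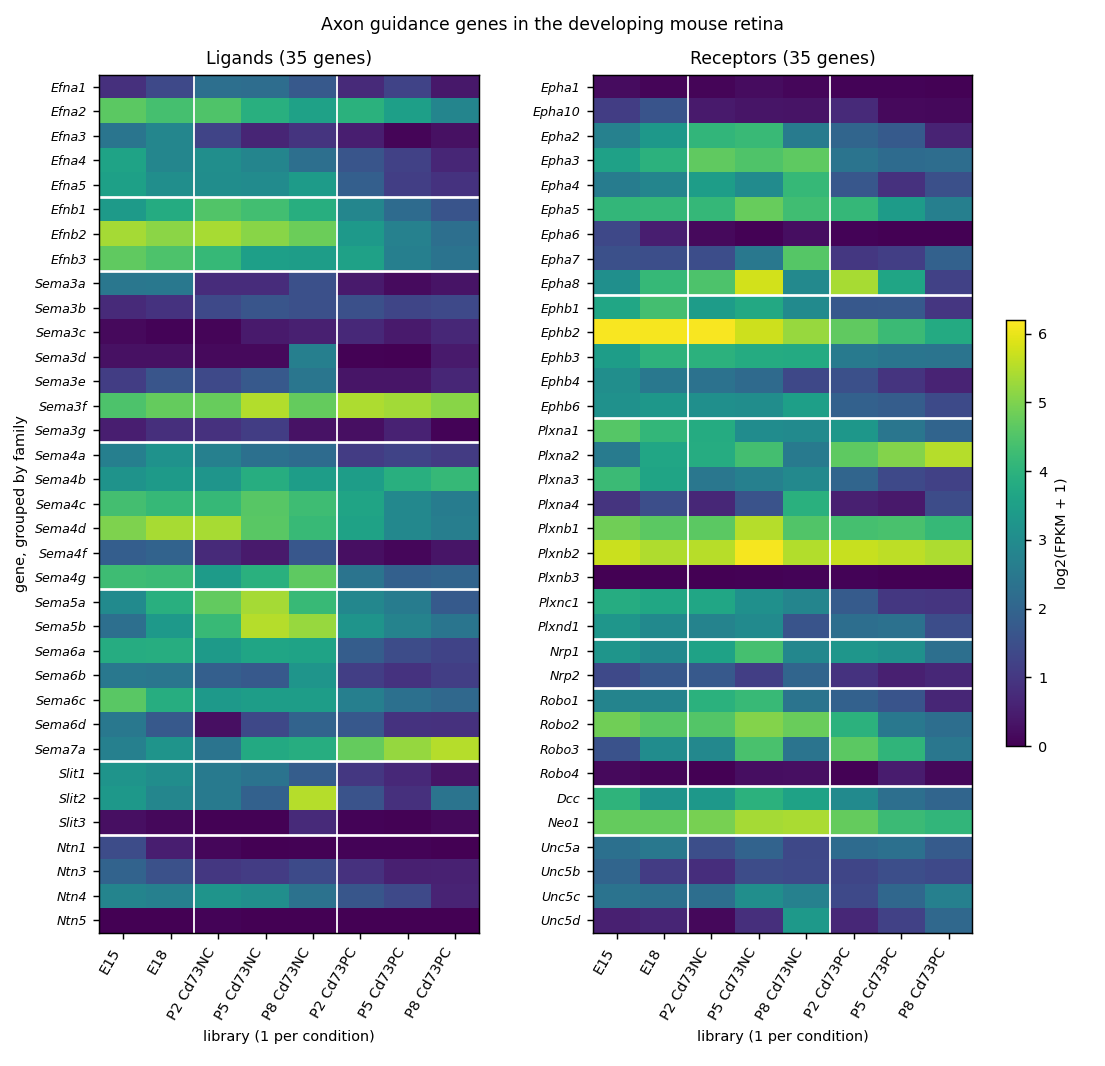
Heat map of log2(FPKM + 1) of the 35 ligands (left) and 35 receptors (right), in rows grouped by family, over the 8 libraries in columns (1 library per condition). Plxnb2 is bright in all 8 columns and Ephb2 in whole retina and Cd73NC, most rows darken in the 3 Cd73PC columns, and Sema7a and Plxna2 brighten there.

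Ephrin-A ligands, which are held in the membrane by a lipid anchor and bind EphA receptors, were led by Efna2. Its FPKM was 23.7 at E15 and 19.8 at E18, then 21.5, 13.9, and 10.6 in Cd73NC and 14.6, 10.4, and 6.09 in Cd73PC at P2, P5, and P8. Efna5, which is known for its part in the retinotectal map, was at 10.5 and 7.34 in whole retina, at 7.20, 6.96, and 9.51 in Cd73NC, and at 2.70, 1.22, and 0.880 in Cd73PC. The Cd73PC level of Efna5 was thus 37.6%, 17.5%, and 9.25% of Cd73NC, while Efna2 passed 1.5-fold at P8 only (57.4%), a call that was lost under both other scalings. Efna4 fell from 11.1 at E15 to 6.22 at E18 and had 7.35, 6.08, and 3.84 in Cd73NC against 2.12, 1.28, and 0.599 in Cd73PC. Efna1, Efna3, and Efna4 lie in a row on chromosome 3, with gaps of 33999 and 10513 bases, and all were higher in Cd73NC at P2 and P8. Efna3 was at or below 0.563 in both fractions at P5. Its P8 call also rests on levels below 1 (0.901 in Cd73NC and 0.204 in Cd73PC).

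Ephrin-B ligands span the membrane and can signal back into the cell that carries them, and all 3 were higher in Cd73NC at every stage. Efnb2, which marks the dorsal retina together with Efnb1, was at FPKM 40.2 and 33.9 in whole retina, at 40.8, 33.3, and 27.0 in Cd73NC, and at 8.99, 5.63, and 3.78 in Cd73PC. The fold grew from 4.19 through 5.18 to 5.87 over the stages. Efnb1 was at 9.36 at E15 and 13.0 at E18, and at 21.7, 19.1, and 13.8 in Cd73NC and at 6.17, 3.51, and 2.07 in Cd73PC. Efnb3, a ligand of axon midline repulsion in the spinal cord, differed least, with 16.7, 10.3, and 9.91 in Cd73NC and 10.7, 5.43, and 4.12 in Cd73PC after 24.6 and 21.2 in whole retina. Its log2 ratio at P2, -0.60, lay close to the threshold and was -0.54 after upper-quartile scaling and -0.50 after quantile normalization. At P5 it was -0.81, and -0.52 after quantile normalization, so the P2 call was lost under both scalings and the P5 call under the latter.

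Of the 9 EphA receptors, Cd73NC had the higher level of 3 at P2 and of 6 at each later stage. Epha2, Epha3, and Epha4 were higher in Cd73NC at all 3 stages, and Epha3 had the highest mean of these, at FPKM 10.7 and 14.7 in whole retina, 24.7, 21.4, and 24.5 in Cd73NC, and 4.27, 3.46, and 3.64 in Cd73PC, a difference near 5-fold at each stage (4.88, 5.03, and 5.50). Epha4, which binds both ephrin classes, was at 5.07 and 6.08 in whole retina, then at 10.0, 6.94, and 16.7 in Cd73NC against 2.20, 0.834, and 1.88 in Cd73PC. Epha2 followed a different course, with 15.8 and 17.5 in Cd73NC at P2 and P5 but 4.99 at P8, while Cd73PC had 3.03, 2.35, and 0.532 and whole retina 5.64 and 8.96. Thus Epha3 held its Cd73NC level from P2 to P8, Epha4 was 1.61-fold higher at P8, and Epha2 was 2.81-fold lower.

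EphB receptors, which bind ephrin-B ligands, were all 5 higher in Cd73NC at all 3 stages. Ephb2, known for its part in the pathfinding of ganglion cell axons to the optic disc, was the strongest at 69.6 and 68.8 in whole retina, 69.1, 51.6, and 37.0 in Cd73NC, and 24.7, 17.8, and 12.9 in Cd73PC. The Cd73PC level was 35.7%, 34.5%, and 34.9% of Cd73NC, so both fractions declined in parallel. Ephb3 was as even, with 9.91 and 15.2 in whole retina, 14.9, 13.1, and 12.7 in Cd73NC, and 4.85, 4.33, and 4.19 in Cd73PC (32.5% to 33.2%). Ephb1, which directs uncrossed ganglion cell axons at the chiasm, rose 1.61-fold from 11.6 at E15 to 19.3 at E18 and was at 9.69, 12.3, and 6.87 in Cd73NC and 2.24, 2.30, and 0.962 in Cd73PC. Ephb4, best known from veins, was at 7.39 and 4.60 in whole retina, 4.03, 3.43, and 1.55 in Cd73NC, and 1.85, 0.904, and 0.543 in Cd73PC. Its log2 ratio at P8, -0.72, was -0.29 after quantile normalization, within the threshold. Ephb6, a receptor without kinase activity, was at 7.76 and 8.70 in whole retina, 7.48, 7.26, and 10.2 in Cd73NC, and 2.83, 2.54, and 1.62 in Cd73PC.

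**Figure D3:**
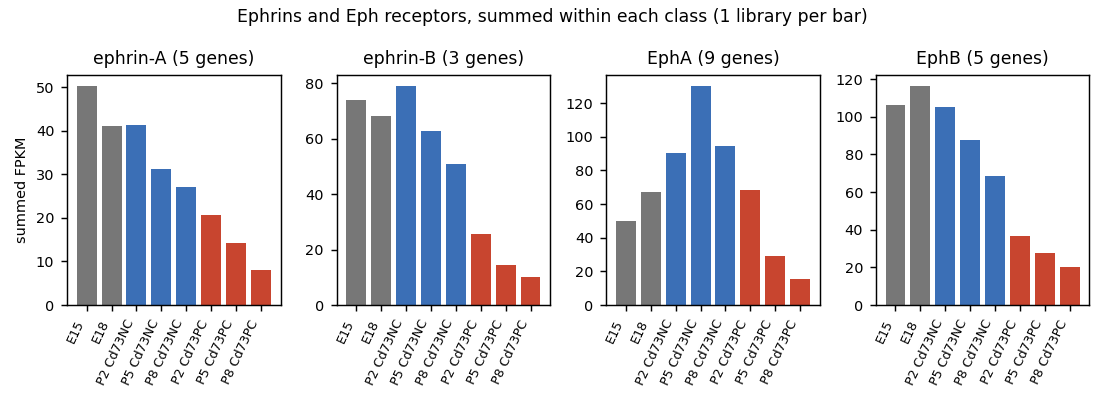
Summed FPKM (y axis, from 0, own scale in each panel) of the ephrin-A, ephrin-B, EphA, and EphB genes in the 8 libraries (gray, whole retina; blue, Cd73NC; red, Cd73PC), 1 library per bar, without error bars since there are no replicates. Each sum is lower in Cd73PC than in Cd73NC at every stage, as for EphB with 36.5 against 105.2 at P2 and 20.2 against 68.4 at P8, and the EphA sum alone has its peak in the P5 Cd73NC library (130.5).

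Epha8 was the only Eph receptor higher in Cd73PC at any stage. Its FPKM was 7.56 at E15 and 16.8 at E18, in Cd73NC 21.0, 53.8, and 6.55, and in Cd73PC 40.6, 11.5, and 1.30 at P2, P5, and P8. It was therefore 1.89-fold higher in Cd73PC at P2, but 4.37-fold higher in Cd73NC at P5 and 3.29-fold higher in Cd73NC at P8. From P2 to P8 it fell by 18.1-fold in Cd73PC, the largest change of any of the 70 genes in that fraction. Epha5 followed a milder course. It was at 16.6 in both fractions at P2, then at 25.9 and 18.6 in Cd73NC and 9.56 and 5.44 in Cd73PC. It was thus 2.54-fold and 3.04-fold higher in Cd73NC at P5 and P8. Epha8 (NCBI37/mm9, chr4:136485334-136512731) lies 93483 bases from Ephb2 on chromosome 4, and Ephb2 showed neither the rise to E18 nor the turn between P2 and P5.

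Class 3 semaphorins are secreted and mostly repel axons through neuropilin and plexin A. Sema3f, a ligand of Nrp2, made up 64.2% to 93.5% of the summed FPKM of the 7 genes in every library, with 21.3 and 25.6 in whole retina, 26.2, 44.2, and 25.4 in Cd73NC, and 42.6, 39.3, and 33.5 in Cd73PC. It was 1.60-fold higher in Cd73PC at P2, and its log2 ratios at P5 and P8 were -0.16 and 0.38. Sema3d, another secreted repellent, was at 0.217 and 0.220 in whole retina, 0.108, 0.109, and 5.38 in Cd73NC, and 0.0195, 0, and 0.372 in Cd73PC, so it passed FPKM 1 only in Cd73NC at P8. Sema3c, a class 3 ligand that can attract axons, was at 0.115 and 0.0418 in whole retina, 0.0550, 0.364, and 0.453 in Cd73NC, and 0.629, 0.362, and 0.626 in Cd73PC. It passed 1.5-fold in Cd73PC at P2, a call that rests on levels below 1.

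Sema3a, a repellent of many growing axons, and Ntn1, the netrin of the optic disc, were singled out after their values were seen, since both were mainly transcripts of the whole retina. Sema3a was at FPKM 4.51 and 4.62 at E15 and E18 and between 0.144 and 1.84 in the sorted libraries. Ntn1 was at 1.71 and 0.431 and at 0.0755 or less after sorting. In all, 16 of the 70 genes were above every sorted library at both E15 and E18 (background 13.8%), among them Plxna3, Sema6c, and Slit1. Of the 59 with a mean FPKM of at least 1, 13 were (background 16.5%). The summed FPKM of ganglion cell markers was lower in each sorted library as well (298.2 or less), although Isl1, a marker that bipolar cells also express, was at 294.5 in Cd73NC at P8 after 69.7 and 26.4 in whole retina. Age, cell makeup, and dissociation cannot be told apart in this contrast.

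Class 4 semaphorins are membrane proteins that act largely through plexin B. Sema4d, a ligand of Plxnb1, was at 30.9 and 40.9 in whole retina, 40.7, 23.4, and 17.0 in Cd73NC, and 10.8, 6.44, and 5.29 in Cd73PC. Sema4g took the opposite course in Cd73NC, with 9.56, 14.3, and 24.3 after 18.4 and 17.8 in whole retina, and had 4.23, 2.75, and 3.02 in Cd73PC, so that Sema4g replaced Sema4d as the leading class 4 gene of Cd73NC at P8. Sema4a, which is needed for photoreceptor survival in mice, was at 5.38 and 8.01 in whole retina, 5.52, 3.89, and 3.53 in Cd73NC, and 1.14, 1.38, and 1.10 in Cd73PC. Sema4b was the class 4 gene past 1.5-fold in Cd73PC, at P8, and its 3 Cd73PC values climbed from 10.0 through 14.0 to 16.7, against 8.34, 13.5, and 9.87 in Cd73NC and 8.12 and 9.42 in whole retina. It was 1.63-fold higher in Cd73PC at P8, and its log2 ratios at P2 and P5 were 0.24 and 0.04.

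Among the semaphorins of classes 5 and 6, 5 or more of the 7 genes in the group with Sema7a were higher in Cd73NC at each stage. Sema5a and Sema5b, which keep neurites of inner retinal neurons out of the outer retina through Plxna1 and Plxna3, rose from E15 to E18 and peaked in Cd73NC at P5. Sema5a was at 6.76 and 14.2, then 25.2, 40.4, and 17.1 in Cd73NC and 6.34, 5.12, and 2.39 in Cd73PC. Sema5b was at 3.78 and 9.13, then 17.1, 44.8, and 36.9 in Cd73NC and 8.19, 5.89, and 4.33 in Cd73PC. Both differed by over 6-fold between fractions at P5 (6.76-fold and 6.65-fold). Of these receptors, Plxna1 was at 22.8 and 16.3 in whole retina, 13.0, 7.11, and 6.85 in Cd73NC, and 8.78, 4.42, and 2.97 in Cd73PC. Plxna3 was at 17.7 and 11.3 in whole retina, 4.50, 5.46, and 6.52 in Cd73NC, and 3.09, 1.60, and 1.29 in Cd73PC.

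Sema6a, a transmembrane ligand of Plxna2 and Plxna4, was at 13.2 and 13.5 in whole retina, 9.45, 11.6, and 11.0 in Cd73NC, and 2.56, 1.72, and 1.37 in Cd73PC. Sema6b rose 2.54-fold in Cd73NC from P2 to P8 (2.69, 2.30, and 8.36) and was at 1.23, 0.890, and 1.21 in Cd73PC, after 4.62 and 4.38. Sema6c was highest at E15, with 23.3, fell to 13.6 at E18, and was at 9.02, 9.99, and 9.96 in Cd73NC and 5.40, 3.91, and 3.26 in Cd73PC. Sema6d, a ligand of Plxna1, switched sides. It was at 4.57 and 2.31 in whole retina, at 0.191, 1.54, and 2.93 in Cd73NC, and at 2.25, 0.889, and 0.859 in Cd73PC. It was 2.73-fold higher in Cd73PC at P2 and 2.12-fold higher in Cd73NC at P8, and its log2 ratio at P5 was -0.43.

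Sema7a, a lipid-anchored semaphorin that promotes axon growth through integrins and binds Plxnc1, was the leading guidance ligand of Cd73PC at P8. Its FPKM was 5.47 at E15 and 8.19 at E18, 4.20, 12.7, and 13.6 in Cd73NC, and 25.5, 36.3, and 44.9 in Cd73PC. The 3 Cd73PC values lay above each of the other libraries, and the folds for the 3 stages were 5.10, 2.73, and 3.13. The Cufflinks bounds at P2 were 3.53 to 4.87 in Cd73NC and 23.0 to 26.0 in Cd73PC, far apart. Plxnc1 ran the other way, at 13.4 and 12.0 in whole retina, 11.8, 7.59, and 6.09 in Cd73NC, and 2.43, 1.02, and 0.946 in Cd73PC, so the ligand was high in the fraction where this receptor was low at all 3 stages.

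Plxna2, a receptor of Sema6a and, with neuropilins, of class 3 semaphorins, was the other gene of Cd73PC. It was at 5.00 and 11.8 in whole retina, at 13.4, 19.3, and 4.92 in Cd73NC, and at 24.4, 32.2, and 44.3 in Cd73PC. The fold was 1.76 and 1.64 at P2 and P5 and rose to 7.65 at P8, as the Cd73NC level fell and the Cd73PC level rose. In the Cd73PC libraries at P8, Plxna2 made up 39.4% of the summed FPKM of the 9 plexins and Sema7a 77.0% of that of semaphorins 5 to 7. At 2-fold only Sema7a stayed higher in Cd73PC at all 3 stages.

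Robo3, a Robo receptor that lacks Slit binding in mammals and is needed for midline crossing, was higher in Cd73PC at P2 alone. Its FPKM was 1.96 and 7.05 in whole retina, 6.42, 20.2, and 4.21 in Cd73NC, and 24.0, 15.6, and 4.50 in Cd73PC. The fold at P2 was 3.38, and the log2 ratios at P5 and P8 were -0.35 and 0.08. Within Cd73PC it fell by 4.55-fold from P2 to P8. Unc5a, a netrin receptor linked to repulsion, was also past 1.5-fold in Cd73PC at P2 alone, at 3.52 against 1.83, with 2.90 and 1.55 in Cd73NC and 3.87 and 2.45 in Cd73PC at P5 and P8 and 3.87 and 4.56 in whole retina. After quantile normalization Unc5a was past the threshold at P5 and P8 too (log2 0.69 and 0.98). Thus 8 genes were past 1.5-fold in Cd73PC at P2, and 6 of them (all but Sema7a and Plxna2) were not past it at P5. At P2 the microglial and astrocyte markers were also higher in Cd73PC and at P5 none of them was, and their part in these levels was not tested.

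**Figure D4:**
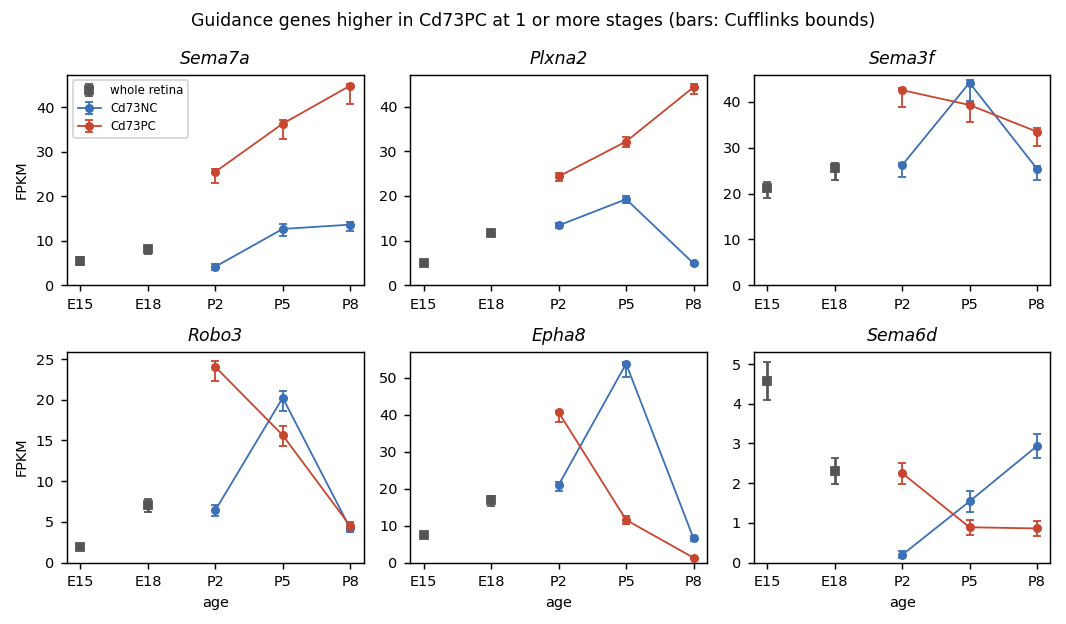
FPKM (y axis, from 0) against age (x axis) of 6 guidance genes past 1.5-fold in Cd73PC at 1 or more stages, with whole retina (gray squares), Cd73NC (blue), and Cd73PC (red), 1 library per point and the Cufflinks bounds as bars, which are not replicate errors. Sema7a and Plxna2 rise in Cd73PC to 44.9 and 44.3 at P8, whereas Robo3, Epha8, and Sema6d have their highest Cd73PC value at P2.

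The promoters of Sema7a, Plxna2, and Robo3 are shown because Sema7a and Plxna2 were higher in Cd73PC at all 3 stages and because Robo3 alone held a photoreceptor motif among the genes past 1.5-fold in Cd73PC at any stage that had a promoter in the table. Each run is the 250 bases before the RefSeq transcription start on GRCm38.p6, a later build than the NCBI37/mm9 of the expression tables, read 5′ to 3′ along the gene's strand. Capitals mark the core motif of the photoreceptor factor CRX (TAATCC, or GGATTA where it lies on the other strand).
Sema7a (chr9:57939862-57940111, plus strand): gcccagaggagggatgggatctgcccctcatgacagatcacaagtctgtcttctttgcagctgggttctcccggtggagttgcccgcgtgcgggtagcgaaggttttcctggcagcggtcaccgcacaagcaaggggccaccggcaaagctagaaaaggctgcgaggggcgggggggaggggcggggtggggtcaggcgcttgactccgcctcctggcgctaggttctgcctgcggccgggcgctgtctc
Plxna2 (chr1:194619579-194619828, plus strand): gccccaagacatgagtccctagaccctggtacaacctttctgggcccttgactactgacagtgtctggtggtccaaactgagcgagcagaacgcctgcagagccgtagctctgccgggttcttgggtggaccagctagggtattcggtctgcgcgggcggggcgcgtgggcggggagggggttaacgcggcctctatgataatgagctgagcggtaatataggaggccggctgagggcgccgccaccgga
Robo3 (chr9:37433176-37433425, minus strand): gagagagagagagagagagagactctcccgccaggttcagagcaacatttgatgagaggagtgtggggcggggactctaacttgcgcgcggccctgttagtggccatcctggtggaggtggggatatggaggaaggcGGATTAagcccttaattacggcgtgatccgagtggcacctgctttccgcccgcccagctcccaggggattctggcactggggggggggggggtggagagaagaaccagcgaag
The Robo3 match lies 113 bases before the start. RefSeq promoters were matched for 60 of the 70 genes, and windows of 300 bases (250 before and 50 after the start) held the motif on either strand in 2 of them, Robo3 and Robo4, or 3.33%, against 8.14% of 27025 genes. A match describes letters only, and its absence in Sema7a and Plxna2 says only that these letters are not in these windows.

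Among plexins, the receptors of semaphorins, Plxnb2 had the highest mean. It was at 51.0 and 43.0 in whole retina, 45.3, 68.5, and 43.8 in Cd73NC, and 50.3, 46.6, and 42.6 in Cd73PC, with log2 ratios of 0.15, -0.55, and -0.04, none past the threshold. The value at P8 was 0.10 after upper-quartile scaling and 0.06 after quantile normalization. The summed FPKM of the 9 plexins over the 3 stages was 118.4, 161.3, and 106.6 in Cd73NC against 112.8, 110.6, and 112.4 in Cd73PC. Nrp1, the co-receptor of Sema3a, had its highest level in Cd73NC at P5, with 10.9, 19.8, and 6.27 in Cd73NC, 8.63, 7.70, and 3.79 in Cd73PC, and 8.42 and 6.67 in whole retina. Its log2 ratio at P8, -0.60, was -0.17 after quantile normalization.

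Slits are secreted repellents, and Slit1 and Slit2 are known to channel ganglion cell axons toward the optic nerve. Slit1 was at 8.31 and 7.20 in whole retina, 4.81, 4.15, and 2.55 in Cd73NC, and 0.993, 0.648, and 0.249 in Cd73PC, and it fell past 1.5-fold from P2 to P8 in both fractions. Slit2 was at 8.83 and 6.22 in whole retina and at 4.74 and 2.83 in Cd73NC at P2 and P5, and then stood at 44.5 in Cd73NC at P8. Cd73PC had 1.98, 0.800, and 4.18 of Slit2, which left an 8.78-fold difference at P8, the largest toward Cd73NC of the 70 genes at any stage. The Slit receptors did not follow Slit2. Robo1 was at 5.97 and 5.91 in whole retina, 14.4, 17.1, and 4.22 in Cd73NC, and 2.79, 2.05, and 0.588 in Cd73PC. Robo2 was at 27.9 and 23.2 in whole retina, 22.3, 32.1, and 26.7 in Cd73NC, and 14.9, 4.55, and 3.69 in Cd73PC. Thus Robo1 was 2.96-fold lower in Cd73NC at P8 than at P2, and Robo2 stayed within 1.5-fold.

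Netrins were weak in every library. Ntn4, a laminin-related netrin of basement membranes and vessels, led them at 5.90 and 5.46 in whole retina, 8.30, 7.33, and 4.01 in Cd73NC, and 2.13, 1.58, and 0.543 in Cd73PC. The netrin receptor Neo1, which also binds repulsive guidance molecules, was far above its ligands at 25.5 at both E15 and E18, 29.2, 40.2, and 41.3 in Cd73NC, and 25.5, 17.7, and 15.9 in Cd73PC. The difference in Neo1 was within 1.5-fold at P2 and reached 2.21-fold at P5 and 2.50-fold at P8. Unc5c, in turn, was higher in Cd73NC at P2 and P5, with a log2 ratio of -0.02 at P8 that was 0.11 after upper-quartile scaling and 0.33 after quantile normalization. Its FPKM was 4.17 and 3.87 in whole retina, 3.76, 7.32, and 5.57 in Cd73NC, and 1.56, 3.18, and 5.49 in Cd73PC, a 2.53-fold rise within Cd73PC.

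Of the 70 genes in whole retina, 6 were higher at E18 than at E15 (Robo3, Plxna2, Sema5b, Epha8, Sema5a, and Ephb1; background 4.61%), and 8 were lower (Unc5b, Ntn1, Dcc, Epha6, Sema6d, Sema6c, Efna4, and Plxna3; background 2.09%). Among the 59 with a mean FPKM of at least 1, 6 were higher (background 7.27%) and 6 lower (background 3.05%). The median log2 change of the 70 genes was -0.01. The folds of the 6 that rose ran from 1.61 (Ephb1) to 2.72 (Robo3), and those of the 8 that fell from 1.51 (Plxna3) to 1.90 (Unc5b). Among those that rose, Robo3, Plxna2, and Epha8 were higher in Cd73PC at P2, and Sema5b, Sema5a, and Ephb1 were higher in Cd73NC at P2. The shares of all rising genes that were higher in either fraction at P2 were not computed. No trait of the guidance genes is therefore read from this overlap. Dcc, the attractive netrin receptor, went from 15.2 to 8.19, and was at 8.81, 14.8, and 10.9 in Cd73NC and 6.87, 3.80, and 3.04 in Cd73PC.

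Within Cd73NC from P2 to P8, 15 genes rose (background 13.5%) and 17 fell (background 14.3%). Of the 59 with a mean FPKM of at least 1, 13 rose (background 20%) and 17 fell (background 24%). The 5 largest rises, each of 4-fold or more, were those of Plxna4 (9.46-fold), Unc5d (9.13-fold), Epha7 (8.57-fold), Slit2 (7.92-fold), and Sema3d (5.76-fold). The share of all genes that rose by 4-fold was not computed, so their number is not read as a result. Plxna4, a receptor of Sema3a and Sema6a, was at 0.897 and 1.80 in whole retina, 0.622, 2.00, and 14.4 in Cd73NC, and 0.467, 0.331, and 1.72 in Cd73PC. Plxna4 overlaps the transcript B230378P21Rik over 4436 bases, and these libraries were not stated to keep strand. Unc5d, a netrin receptor that also binds FLRT proteins, was at 0.457 and 0.573 in whole retina, 0.0956, 0.774, and 9.01 in Cd73NC, and 0.623, 1.28, and 3.30 in Cd73PC. Epha7 was at 1.84 and 1.81 in whole retina, 1.76, 4.58, and 22.6 in Cd73NC, and 1.01, 1.21, and 2.77 in Cd73PC. In all 5, most of the rise came between P5 and P8, and in all 5 the P8 Cd73NC library had the highest value of the 8.

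Bipolar markers rose in the same Cd73NC libraries. The 8 Muller glia markers summed to 1100, 1544, and 1280 at P2, P5, and P8, but single markers took opposite courses. From P2 to P8, for example, Apoe (110.0 to 539.6), Rlbp1 (83.1 to 193.3), and Clu (2.25 to 46.3) rose. Dkk3 (488.5 to 199.8) and Glul (261.5 to 165.2) fell. The summed FPKM of the 8 bipolar markers grew with age, from 354.7 through 915.0 to 1513. Otx2 made up 349.5 of the first of these sums, and the other 7 summed to 5.24, 64.5, and 960.8. Grm6 and Vsx1, which define bipolar types, went from 0 and 0.00119 at P2 to 161.7 and 152.6 at P8. Microglial markers rose too, from a sum of 9.28 at P2 to 196.9 at P8 in Cd73NC, as did those of red blood cells (132.8 to 7007). Astrocyte (2.54 to 23.0), rod (165.9 to 937.8), and cone sums (63.3 to 125.5) rose as well. So did horizontal (20.2 to 167.2, mainly Prox1) and ganglion cell sums (25.2 to 298.2, mainly Isl1). Progenitor (1954 to 1313), amacrine (68.9 to 12.9), and endothelial and pericyte sums (170.9 to 104.6) fell, although Rgs5 of the last list rose (0.585 to 14.7). In Cd73PC the microglial sum went from 54.6 at P2 to 150.8 at P8. The part of any of these cells in the rise of Slit2, Epha7, Plxna4, Unc5d, and Sema3d was not tested.

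**Figure D5:**
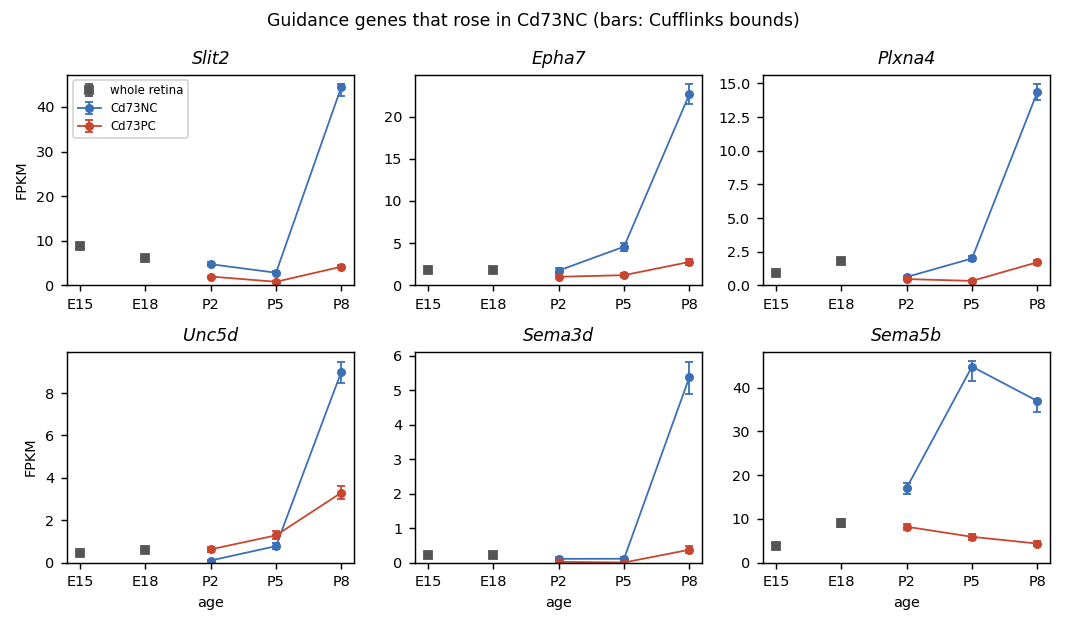
FPKM (y axis, from 0) against age (x axis) of 6 guidance genes that rose in Cd73NC from P2 to P8, with whole retina (gray squares), Cd73NC (blue), and Cd73PC (red), 1 library per point and the Cufflinks bounds as bars, which are not replicate errors. Slit2, Epha7, Plxna4, Unc5d, and Sema3d turn upward between P5 and P8, and Sema5b has its peak of 44.8 at P5.

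Within Cd73PC from P2 to P8, 8 genes rose (background 6.4%) and 32 fell (background 14.7%). Of the 59 with a mean FPKM of at least 1, 8 rose (background 10.4%) and 31 fell (background 25%). After quantile normalization the counts were 10 and 23. The 8 that rose were Unc5d (2.65-fold), Unc5c (2.53-fold), Epha7, Plxna4, Plxna2, Slit2, Sema7a, and Sema4b (1.61-fold to 1.87-fold). Of these, Unc5d, Epha7, Plxna4, and Slit2 rose in Cd73NC as well, where their P8 levels were 2.33-fold to 8.78-fold higher. At P8 Cd73PC had 9.40% of the Cd73NC level of Slit2, 11.9% of Plxna4, 12.2% of Epha7, and 36.6% of Unc5d. The 7 bipolar markers other than Otx2 were at 7.70% to 28.7%. The part of Cd73NC cells carried over into Cd73PC in these rises was not tested. Sema7a rose in both fractions, Plxna2 rose in Cd73PC and fell 2.43-fold in Cd73NC, and Sema4b and Unc5c stayed within 1.5-fold in Cd73NC. Among the 25 genes with FPKM 5 or more in Cd73PC, 20 (80%) had their highest Cd73PC value at P2, 1 (4%) at P5, and 4 (16%) at P8. Of all 9075 genes at that level, the shares were 53.8%, 17.9%, and 28.3%. Among the 47 with FPKM 5 or more in Cd73NC, the highest value was at P2 in 13 (27.7%), at P5 in 21 (44.7%), and at P8 in 13 (27.7%). Of all 10127 genes at that level, the shares were 44.9%, 22.1%, and 33.0%.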

How the data were processed

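Poly(A) RNA of 8 conditions, 1 library each, was sequenced as single reads of 36 bases. The authors aligned the reads to NCBI37/mm9 with TopHat 2.0.8b (up to 50 placements per read) and deposited, for each library, a Cufflinks 2.1.1 table of FPKM with confidence bounds and a status. FPKM is normalized to transcript length and mapped fragments. Read counts were not used here, and the absolute depth is unknown, so no counting interval was computed. Depth relative to E18 was read from the steps between the lowest FPKM values.

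Tables were joined on gene, locus, and start site, since their row order differs. Small RNAs (797 of 23021 rows) were removed, and rows sharing a symbol (234 symbols) were summed, leaving 21827 genes. Failed estimates (20 rows in 1 or more libraries) were treated as missing, and none was a guidance gene. Start coordinates were made 1-based, and all 70 guidance genes overlapped the same gene in an annotation of NCBIM37.

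Ratios used FPKM + 1, with 1.5-fold, the cutoff of the study, as the threshold and without any test. Named with all values were genes past it in 1 direction at all 3 stages and reaching FPKM 5, genes higher in Cd73PC at any stage, genes past it in opposite directions, genes changing 4-fold between E15 and E18 or between P2 and P8, and the gene with the highest mean in each family (45 in all). The genes and lists were chosen with earlier results of these data known. 1 gene of the marker lists is not reported here. Alternatives were pseudocounts of 0.1 and none, a filter for a mean FPKM of at least 1, upper-quartile and quantile scaling, a 2-fold threshold, and non-overlapping bounds. The code was tested on simulated data. Python 3.11.15, pandas 2.3.3, numpy 2.4.6, and matplotlib 3.10.9 were used.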

Additional observations from a re-analysis of the deposited data

Results flagged for a closer look

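Genes past 1.5-fold in opposite directions at different stages were singled out. Epha8 had a log2 ratio of Cd73PC over Cd73NC of 0.92 at P2, -2.13 at P5, and -1.72 at P8. Sema6d had 1.45 at P2 and -1.08 at P8. With 1 library per fraction and stage the difference between stages was not tested for either gene. The Sema6d values rest on levels between FPKM 0.191 and 2.93, and its ratio at P8 was -0.58 after quantile normalization, just inside the threshold, while its ratio at P2 was then 1.52.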

How the results depend on the processing

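No paired analysis was possible because each fraction has a single library at each stage, and a fit of the fraction with stage as a block, which would take differences between stages as error, was not run. Leaving out 1 library would leave its condition empty. No call was reversed under any alternative tried. Within the threshold, the log2 ratio turned from below to above 0 under upper-quartile scaling and quantile normalization for Plxnb2 at P8 (-0.04 to 0.10 and 0.06), Unc5c at P8 (-0.02 to 0.11 and 0.33), and Sema3c at P5 (-0.0018 to 0.025 and 0.18). Of the counts and medians, 99 values stayed within 1.5-fold of those reported and 16 moved further. Without a pseudocount, the Cd73PC count was 14 for P2 and 5 for P5, 14 genes rose and 14 fell from E15 to E18, and the median log2 ratio at P8 was -2.24. With a pseudocount of 0.1, 4 were higher in Cd73PC at P5 and 13 rose from E15 to E18. After quantile normalization, 4 were higher in Cd73PC at P5 and 5 at P8. At 2-fold, the Cd73PC count was 3 for P2, 1 for P5, and 1 for all 3 stages together, 0 fell from E15 to E18, 6 fell in Cd73NC from P2 to P8, and in Cd73PC 2 rose and 15 fell. A smaller pseudocount admits weaker genes and 2-fold requires larger changes, and the cause of the moves under quantile normalization was not tested. Of the single-gene ratios, 487 stayed the same and 52 moved, all 52 under a smaller or no pseudocount and all without a change of sign.

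The counts higher in Cd73NC ran over all settings from 22 to 41 (P2), from 36 to 54 (P5), from 41 to 56 (P8), and from 21 to 37 for all stages together. Quantile normalization moved the median ratio of all genes toward Cd73PC by 0.10, 0.18, and 0.24 at the 3 stages, and upper-quartile scaling by 0.12 at P8. Leaving out P5 was chosen after seeing the data, because the summed rod markers were highest in the Cd73NC library of that stage. Single rod markers (Gnat1, Sag, Cnga1, and Rcvrn) were higher in Cd73NC at P8. Leaving out P5 gave 30 genes higher in Cd73NC at both other stages, among them the 29, and the same 2 in Cd73PC. Requiring separate Cufflinks bounds changed no count. These bounds cover estimation within a library only.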

Other observations

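Guidance genes outside the chosen families, such as adhesion molecules, cytoplasmic effectors, and netrin-G proteins, were also read from a fixed list, of which 51 of 52 had a value. Over the 3 stages, 24, 27, and 31 were higher in Cd73NC and 5, 2, and 4 in Cd73PC, against the same shares of all genes as in the report (14.4%, 15.5%, and 18.6%, and 8.56%, 7.02%, and 7.54%). At all 3 stages 21 were higher in Cd73NC (background 7.83%) and 1, Farp2, in Cd73PC (background 3.51%). Among all genes with a mean FPKM of at least 1, the shares by stage were larger. They were 24.2%, 26.3%, and 29.8% for Cd73NC and 13.9%, 11.6%, and 12.4% for Cd73PC. For all 3 stages together they were 13.7% and 5.98%. The 51 genes were not counted at that level. Farp2, an exchange factor downstream of plexin A, was at FPKM 4.07, 5.79, and 8.72 in Cd73PC against 0.923, 2.42, and 4.38 in Cd73NC. Dpysl3, a collapsin response mediator, was at 197.3, 201.2, and 262.5 in Cd73PC and 97.0, 156.2, and 75.2 in Cd73NC, past 1.5-fold at P2 and P8. Ntng2, a netrin-G, had 88.8, 67.7, and 49.3 in Cd73PC and 14.8, 77.8, and 43.3 in Cd73NC, so it was past 1.5-fold at P2 only. Its relative Ntng1 was at 0.549, 0.348, and 22.8 in Cd73NC, a late course like that of Slit2 and Plxna4, with 0.302, 0.0980, and 2.77 in Cd73PC. Gap43, a growth cone protein, was at 511.8 at E15 and 241.0 at E18 and at 31.4 or less in the sorted libraries. These genes were picked out after their values were seen.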
